A study of Mus musculus with 12 samples.

Results

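Primary mouse oligodendrocyte precursor cells (OPCs) that had received extracellular vesicles from interleukin-4-stimulated microglia (IL4-EVs) were compared with OPCs that had received medium alone (CTRL). The comparison rested on 6 of the 12 arrays of the study, 3 per group, and covered 30077 genes with a single symbol among the 65535 transcript clusters of the array table. The whole set of named genes was tested, and the account is about functions other than the respiratory chain, the ribosome and the proteasome. Both groups were OPCs from whole brains of C57Bl/6 pups at postnatal day 2. They had been sorted with anti-CD140a (PDGFRα) beads, expanded for 48 h with PDGF-AA and FGF2, and moved to differentiation medium with the thyroid hormone T3. About 4 h after the switch, IL4-EVs cultures received vesicles from 2 donor microglia per OPC. Vesicle release had been triggered with ATP once the IL4 medium was removed. CTRL cultures received medium without any vesicle preparation, and RNA was taken at 24 h of differentiation. The other 6 arrays came from OPCs given vesicles of microglia stimulated with IL-1β, TNF and IFN-γ (i-EVs), or with the same cytokines during co-culture with mesenchymal stem cells (MSC-EVs). They entered the comparison only through the shared estimate of spread. None of the 4 groups received vesicles of unstimulated microglia.

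OPCs are the dividing glial cells that give rise to myelinating oligodendrocytes. On differentiation they leave the cell cycle, pass through a committed, premyelinating stage and then switch on the genes of myelin proteins and lipids. Microglia, the immune cells of the brain, release membrane vesicles that carry proteins, lipids and RNA to neighboring cells, and interleukin-4 is a cytokine that moves macrophages and microglia toward a repair-associated state.

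Genes of OPCs gave strong signals: Ptprz1 had a mean of 17.73 log2 units in IL4-EVs arrays and 17.42 in CTRL arrays, and Ncan 15.22 and 14.49. The sorting marker Pdgfra was not among the measured genes. A mean of 6 log2 units is the minimum used here for a clearly measured gene. It was reached by 9 of 17 astrocyte, 6 of 19 neuron and 5 of 10 neural stem and radial glia markers. Of 22 microglial markers, Sall1 alone reached it, and Cx3cr1, P2ry12, Csf1r, Aif1 and C1qa lay below it. Myelin basic protein (Mbp) was also dim, at 5.66, 5.69 and 5.75 log2 units in IL4-EVs arrays and 5.61, 5.71 and 5.73 in CTRL arrays. No 2 arrays were identical, and arrays of a group correlated at 0.9982 to 0.9983 for IL4-EVs and 0.9975 to 0.9984 for CTRL (13110 clusters with a mean of at least 6). MSC-EVs replicate 3 stood apart from its group. Its 28 mitosis genes lay at a median of 0.83 log2 units above the CTRL mean, where MSC-EVs replicates 1 and 2 lay at -0.70 and -0.69, so it widened the shared spread of cell cycle and stage genes. Counts that turn on it are given with and without it. The labels do not say that replicates came from separate litters, so the p-values rest on array-to-array spread that could be technical.

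At a fold of 1.5 and an adjusted p under 0.05 (limma, Benjamini-Hochberg over all clusters), 1178 of 65535 clusters (1.80%) differed between IL4-EVs and CTRL, 352 higher (0.537%) and 826 lower (1.26%). A second quantile normalization turned this split to 565 higher and 428 lower, and cyclic loess to 587 higher and 398 lower. Among genes with a single symbol, 780 of 30077 passed (2.59%), 115 higher (0.382%) and 665 lower (2.21%). Lists of genes are described below without the fold limit: a gene "rose" or "fell" where its adjusted p was under 0.05. On that basis 567 genes rose (1.89%) and 2247 fell (7.47%), and among the 9468 genes with a mean of at least 6 the shares were 5.47% and 21.1%. These shares are the base for the list counts below. The median change was -0.016 log2 over all genes and -0.128 over those 9468. Of 286 measured genes set aside by symbol as respiratory chain, ribosome or proteasome, none was called higher and 59 were called lower. The match by symbol also took in a few genes outside these complexes, such as the kinase gene Rps6ka3 and Psmc3ip. The set-aside genes are not described further, apart from Psmb10, which the interferon list also holds. The other 18422 protein-coding genes held 323 calls, 85 higher and 238 lower. Leaving out CTRL replicate 1 reduced the cluster calls to 645. Leaving out IL4-EVs replicate 2 reduced them to 722.

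**Figure D1:**
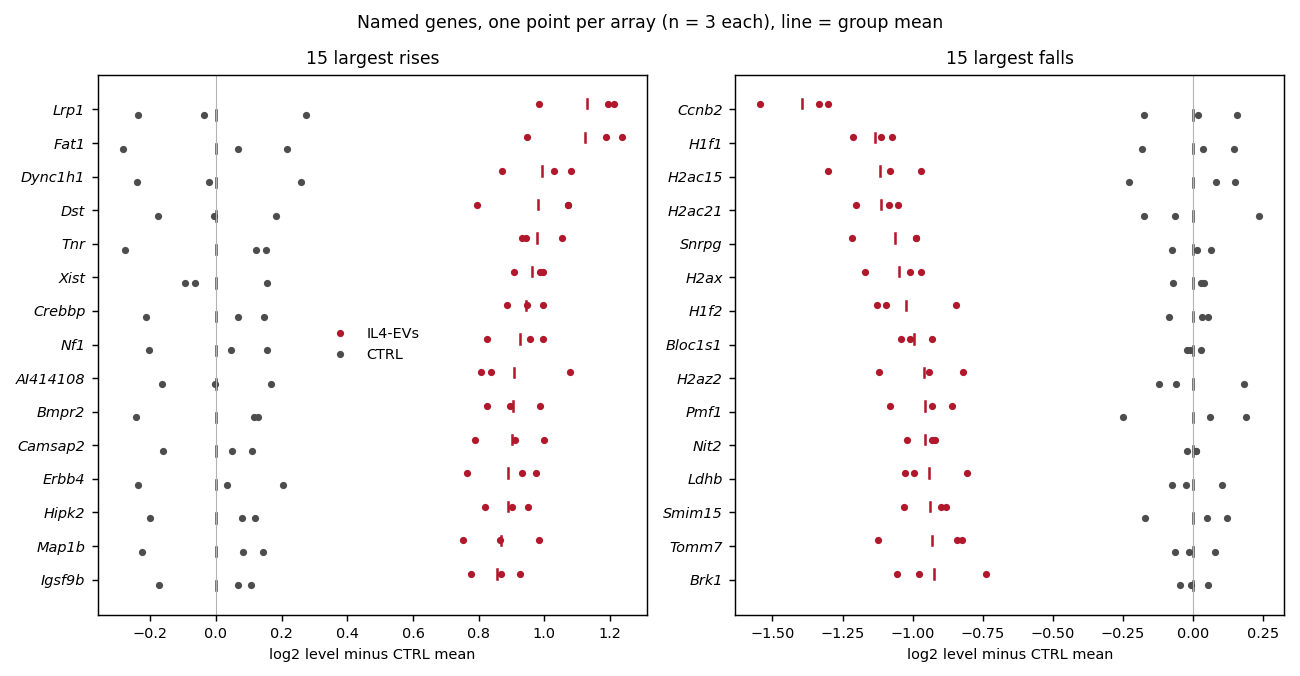
Level of each named gene in each array minus the CTRL mean (log2 units, horizontal axis), for the 15 largest rises (left) and 15 largest falls (right) among genes that were called, with a mean of at least 6 and outside predicted genes, pseudogenes, small RNA genes and the set-aside groups. Red points are the 3 IL4-EVs arrays, grey points the 3 CTRL arrays and short lines the group means. The groups do not overlap for any gene shown, which the choice of genes required.

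Lrp1 and Fat1 rose most among the protein-coding genes named by rule. Lrp1, an endocytic receptor of the LDL receptor family that takes up lipoproteins and myelin debris, stood at 11.43, 11.66 and 11.64 log2 units in IL4-EVs arrays, against 10.21, 10.41 and 10.72 in CTRL arrays. Lrp1 rose by 1.13 ± 0.12 log2 units (SE, adjusted p = 0.0013). That no IL4-EVs array overlapped a CTRL array was required by the choice of genes. Fat1, a giant atypical cadherin, was at 9.54, 9.83 and 9.78 with IL4-EVs, against 8.31, 8.66 and 8.81 in CTRL, a rise of 1.12 ± 0.169 (adjusted p = 0.00347). The 3 CTRL arrays were spread more widely than the 3 IL4-EVs arrays for both genes, with CTRL replicate 1 the lowest.

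Receptors of growth and differentiation signals followed. Bmpr2, the type II receptor of bone morphogenetic proteins, had 11.54, 11.61 and 11.70 log2 units in IL4-EVs arrays and 10.47, 10.83 and 10.84 in CTRL arrays (0.90 ± 0.0983, adjusted p = 0.0013). Erbb4, a neuregulin receptor, had 10.91, 11.12 and 11.08 with IL4-EVs, against 9.91, 10.18 and 10.35 in CTRL (0.89 ± 0.147, adjusted p = 0.00529). For both receptors, groups without overlap were likewise part of the choice. In the list of 51 receptors for cytokines and growth factors, 5 rose and 1 fell. That is 9.8% and 1.96%, against 1.89% and 7.47% of all genes. Among the 22 with a mean of at least 6, 22.7% rose and 4.55% fell, against 5.47% and 21.1% of all such genes. The rises numbered 2 without any one of IL4-EVs replicates 2 and 3 and CTRL replicates 1 and 3, and 9 without MSC-EVs replicate 3.

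The largest falls were in cell cycle and histone genes, which are described next, and in small proteins of many compartments. Snrpg, a core protein of the small nuclear ribonucleoproteins that splice pre-mRNA, was at 12.75, 12.52 and 12.75 log2 units with IL4-EVs and at 13.75, 13.80 and 13.66 in CTRL. It fell by 1.07 on the log2 scale (SE 0.0906, adjusted p = 0.000916). The cluster name gives another chromosome for Snrpg than RefSeq, so the assignment to this gene is uncertain. Bloc1s1, a subunit shared by complexes that position lysosomes and endosomes, had 7.96, 7.88 and 7.85 in IL4-EVs arrays, against 8.92, 8.87 and 8.88 in CTRL arrays, and fell by 1.00 (SE 0.0849, adjusted p = 0.000916). For both genes the arrays of a group lay within 0.3 log2 units of each other or closer. As with the rises, the choice of genes required groups without overlap.

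Cell cycle genes were lower in IL4-EVs arrays than in CTRL arrays, and what passed the test depended on MSC-EVs replicate 3. Cyclin B2 (Ccnb2), which drives entry into mitosis with Cdk1, showed the largest fall among the genes named by rule. Its level was 9.41, 9.62 and 9.65 log2 units with IL4-EVs, against 11.11, 10.97 and 10.78 in CTRL, and it fell by 1.39 (SE 0.301, adjusted p = 0.0195). The adjusted p ranged from 0.000684 without MSC-EVs replicate 3 to 0.0871, and it was above 0.05 without any one of IL4-EVs replicates 1, 2 and 3 and CTRL replicates 1 and 2. In bulk RNA, fewer dividing cells and less of these RNAs per cell cannot be told apart.

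Of 28 measured mitosis genes, 25 lay lower in every IL4-EVs array than in any CTRL array, a pattern found in 22.7% of all genes and 49.0% of those with a mean of at least 6. Their median change was -0.65 log2 units (-0.52 after a second quantile normalization), and their medians per array were -0.67, -0.64 and -0.61 relative to CTRL. Ccnb2 alone passed the test over the 12 arrays, against 25 of 28 without MSC-EVs replicate 3 and 24 of 28 in the 6 arrays of IL4-EVs and CTRL. In those fits 10.2% and 10.8% of all genes fell. Cdk1, the kinase of mitotic entry, was at 9.27, 9.17 and 9.15 with IL4-EVs and at 10.28, 10.02 and 9.89 in CTRL. Its difference was -0.87 ± 0.323 (adjusted p = 0.178, and 0.000875 without MSC-EVs replicate 3).

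DNA replication genes behaved likewise. In 35 of 37 the IL4-EVs arrays lay below the CTRL arrays, as in 22.7% of all genes and 49.0% of those with a mean of at least 6. The median change was -0.51, and 4 fell over the 12 arrays. Among members with a mean of at least 6, 11.1% fell, below the 21.1% of all such genes. Without MSC-EVs replicate 3, 31 fell, and 31 fell in the 6 arrays. In those fits 10.2% and 10.8% of all genes fell. Between 1 and 2 of the 37 passed without any one of IL4-EVs replicates 1, 2 and 3 and CTRL replicates 1 and 2. Rpa3, the small subunit of the protein that coats single-stranded DNA, passed whichever array was left out, at 5.26, 5.09 and 5.22 with IL4-EVs and 5.77, 5.70 and 5.65 in CTRL (-0.51 ± 0.0885, adjusted p = 0.00636).

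Pcna, the sliding clamp of DNA polymerase, had 11.05, 11.10 and 11.10 log2 units in IL4-EVs arrays, against 12.10, 11.90 and 11.76 in CTRL arrays. Rrm2, a subunit of the enzyme that makes deoxyribonucleotides, had 10.82, 10.89 and 10.82 with IL4-EVs and 12.10, 11.90 and 11.72 in CTRL. Neither passed over the 12 arrays (adjusted p = 0.127 for Pcna and 0.185 for Rrm2), where MSC-EVs replicate 3 lay at 12.45 for Pcna and 12.85 for Rrm2. Both passed without it (adjusted p = 0.000827 for Pcna and 0.0007 for Rrm2). Mcm5, a subunit of the replicative helicase, had 9.48, 9.49 and 9.52 with IL4-EVs, against 10.49, 10.46 and 10.31 in CTRL (adjusted p = 0.267, and 0.0007 without MSC-EVs replicate 3). A few cell cycle genes ran the other way: Mki67, a widely used proliferation marker, was at 14.62, 14.83 and 14.75 with IL4-EVs, against 14.28, 14.37 and 14.36 in CTRL (adjusted p = 0.74, and 0.01 without MSC-EVs replicate 3).

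**Figure D2:**
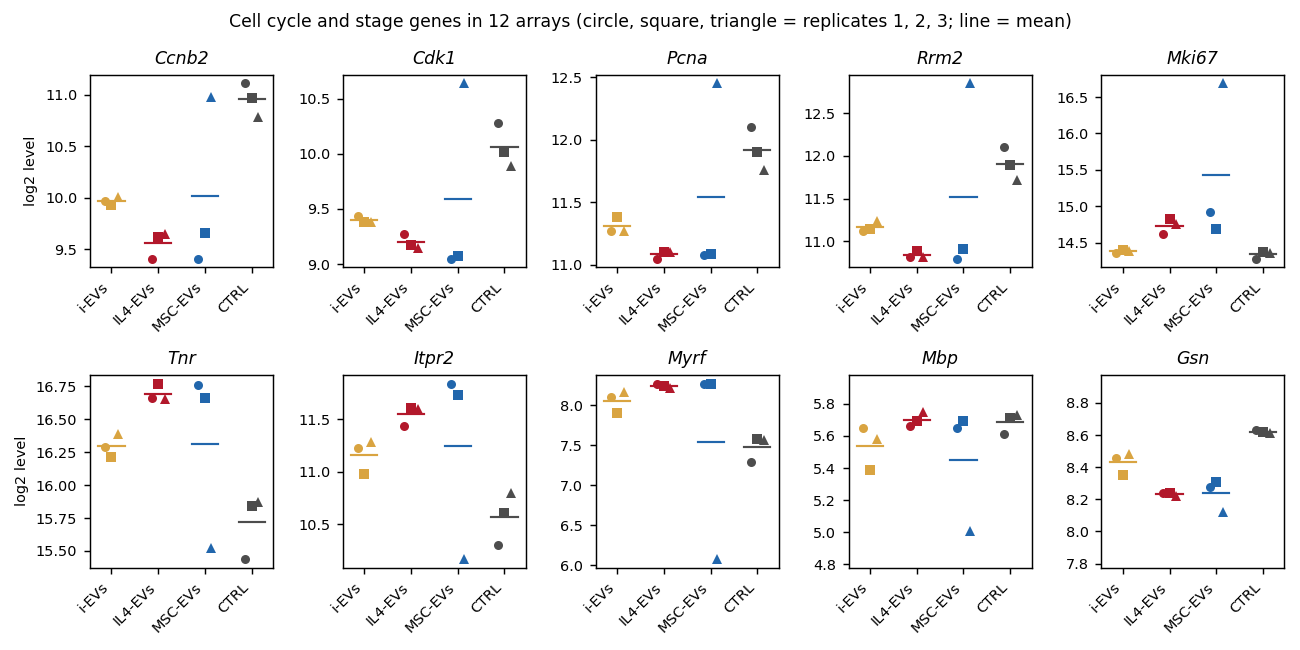
Level (log2 units) of 5 cell cycle genes (top) and 5 stage genes (bottom) in all 12 arrays, grouped as i-EVs, IL4-EVs, MSC-EVs and CTRL. Circle, square and triangle are replicates 1, 2 and 3 and the line is the group mean; MSC-EVs replicate 3 lies away from the other MSC-EVs arrays, at 12.45 for Pcna and 6.08 for Myrf.

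Of 17 cyclin-dependent kinase inhibitors, D cyclins and related exit genes, none rose and 4 fell (30.8% of the 13 with a mean of at least 6, against 21.1% of all such genes, with 7 without MSC-EVs replicate 3, and 1 to 3 without single arrays of the 2 groups). Cdkn2d, the inhibitor p19, fell in this set whichever array was left out, at 5.69, 5.80 and 5.78 log2 units in IL4-EVs arrays and 6.35, 6.58 and 6.46 in CTRL arrays (-0.71 ± 0.102, adjusted p = 0.00273). Cdkn1b, the inhibitor p27 that accumulates as OPCs leave the cycle, was also lower (-0.57, adjusted p = 0.016, up to 0.0813 with a single array left out).

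Histone genes had the lowest median of the lists described, -0.84 over 16 measured genes. All 16 had a lower mean with IL4-EVs, 15 without overlap between the groups, and 7 fell (12 without MSC-EVs replicate 3, 1 to 4 without single arrays of the 2 groups). Of all genes 22.7% were lower without overlap, and 49.0% of those with a mean of at least 6. H1f2, a linker histone, fell whichever array was left out: it had 8.13, 8.41 and 8.16 log2 units with IL4-EVs, against 9.31, 9.17 and 9.29 in CTRL (-1.02 ± 0.159, adjusted p = 0.00398). H2ac21, a core histone H2A gene, had 6.94, 6.79 and 6.91 with IL4-EVs, against 8.23, 7.82 and 7.93 in CTRL (-1.11 ± 0.181, adjusted p = 0.00484). Replication-dependent histone genes are near-identical copies, so the assignment to a single gene is uncertain.

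The promoters of these genes are printed because members of the cell cycle and replication lists moved together. The stretches are the 110 bases just before the annotated start (RefSeq, GRCm38.p6). Capitals mark CCAAT, and also TTTGAA in Cdk1 and TGACGTCA in Mcm5, on either strand. TTTGAA was also sought in the Ccnb2 stretch and was absent from it.
Ccnb2, chr9:70421555-70421664, minus strand: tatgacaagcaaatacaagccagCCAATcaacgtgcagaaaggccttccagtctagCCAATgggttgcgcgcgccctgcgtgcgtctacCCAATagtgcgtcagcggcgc
Cdk1, chr10:69352913-69353022, minus strand: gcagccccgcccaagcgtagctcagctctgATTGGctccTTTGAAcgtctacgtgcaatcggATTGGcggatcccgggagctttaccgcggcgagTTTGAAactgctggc
Mcm5, chr8:75109399-75109508, plus strand: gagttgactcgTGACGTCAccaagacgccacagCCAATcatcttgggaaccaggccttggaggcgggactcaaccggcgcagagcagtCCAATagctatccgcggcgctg
CCAAT is the box bound by the factor NF-Y, TTTGAA the core of the cell cycle homology region and TGACGTCA the cAMP response element. Within 250 bases before the start, on either strand, CCAAT was present in 71.7% of 53 cell cycle and replication promoters, against 38.1% of 5502 promoters of protein-coding genes with a mean of at least 6 and 34.5% of all 27025 promoters. TTTGAA was present in 20.8% of the 53, against 9.83% of the 5502 and 16.3% of all. The letters of the E2F site, TTCCCGCC, were present in 5.66% of the 53, against 3.83% of the 5502. A match describes these letters and is no evidence of binding.

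The same search was made over all genes that passed. CCAAT was present in 44.0% of 1041 promoters of genes that fell and 27.3% of 385 of genes that rose, and TTTGAA in 12.7% and 6.23% of these. The RefSeq gene Snrpg carries an ETS site (CCGGAAG) and a cAMP response element in the 160 bases before its start, shown in capitals. Its array cluster, which fell whichever array was left out, is named for another chromosome.
Snrpg, chr6:86371380-86371539, plus strand: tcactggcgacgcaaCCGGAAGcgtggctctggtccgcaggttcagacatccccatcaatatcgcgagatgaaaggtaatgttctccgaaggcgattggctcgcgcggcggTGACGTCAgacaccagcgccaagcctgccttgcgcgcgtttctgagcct
CCGGAAG, the letters that ETS factors such as Gabpa bind, was present in 28.3% of the 53 cell cycle and replication promoters, 20.4% of those of genes that fell, 14.3% of those of genes that rose and 16.2% of the 5502. TGACGTCA, bound by Creb1 and Atf2, was present in 3.84% of the promoters of genes that fell, 0.519% of those of genes that rose and 3.0% of the 5502. AAGATGGC, the Yy1 site, was present in 2.79% of the promoters of genes that fell, 1.30% of those of genes that rose and 2.47% of the 5502. The counts were not tested. Among the regulators that the study named, Gabpa, Creb1, Atf2, Yy1 and Taf1 did not pass, at 0.01, -0.19, 0.04, -0.14 and 0.14 log2 units. Of 15 measured genes that the study inferred as regulators or measured by qPCR, 1 rose and 2 fell. Zmiz1, a coactivator of nuclear receptors, rose, with 9.70, 9.83 and 9.83 in IL4-EVs arrays and 8.94, 9.20 and 9.12 in CTRL arrays (0.70 ± 0.0926, adjusted p = 0.00212). Cdk4, a kinase of G1 phase, fell, with 14.44, 14.53 and 14.53 in IL4-EVs arrays, against 14.98, 14.95 and 14.85 in CTRL arrays (-0.43 ± 0.0721, adjusted p = 0.00585), and Mapk14, which encodes p38α, was at -0.23 (adjusted p = 0.0462, above 0.05 on leaving out several single arrays).

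Several surface and matrix genes of OPCs rose, whereas few genes of mature myelin passed. A mean of at least 6 was reached by 21 of 22 OPC genes and 12 of 27 myelin genes. Their median genomic spans were 75 and 21.3 kb. The part of level and span in this contrast was not tested. Of 22 measured genes of the OPC state, 6 rose and 1 fell (11 and 2 without MSC-EVs replicate 3), with a median of 0.28 log2 units. Ncan, the matrix proteoglycan neurocan, was at 15.11, 15.30 and 15.26 with IL4-EVs, against 14.33, 14.57 and 14.55 in CTRL (0.74 ± 0.0908, adjusted p = 0.0018). Pcdh15, a protocadherin that marks OPCs in brain, had 9.29, 9.42 and 9.40 in IL4-EVs arrays, against 8.73, 8.89 and 8.88 in CTRL arrays (0.54 ± 0.0798, adjusted p = 0.00313). Sox6, a transcription factor that holds OPCs in the precursor state, had 14.42, 14.53 and 14.46 with IL4-EVs and 13.97, 14.13 and 14.09 in CTRL (0.41 ± 0.0737, adjusted p = 0.0082). These 3 genes passed whichever array was left out, and their groups did not overlap. Tnr, the matrix protein tenascin-R (0.98), Vcan, versican (0.71), and Ptprz1, a receptor phosphatase (0.31), passed with adjusted p of 0.0488, 0.0488 and 0.0149 and missed 0.05 without several single arrays, so that 3 or 4 of the 22 rose without any one array of the 2 groups.

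Genes of committed precursors and newly formed oligodendrocytes were mostly higher in IL4-EVs arrays but did not pass over the 12 arrays. Of 21, 0 rose or fell over the 12 arrays (limma, with 1 higher and 1 lower at an unadjusted p under 0.05), while 7 rose and 1 fell without MSC-EVs replicate 3 and 8 rose in the 6 arrays, with a median change of 0.20 and 13 genes higher in all IL4-EVs arrays than in any CTRL array (11.4% of all genes were, and 18.1% of those with a mean of at least 6). Itpr2, a calcium channel of the endoplasmic reticulum that marks newly formed oligodendrocytes, was at 11.44, 11.61 and 11.60 with IL4-EVs, against 10.30, 10.61 and 10.80 in CTRL (0.98 ± 0.339, adjusted p = 0.142, and 0.00128 without MSC-EVs replicate 3). Gpr17, the receptor of the committed stage, differed by 0.15 (95% interval -0.24 to 0.53), at 18.07, 18.21 and 18.04 with IL4-EVs and 17.85, 18.00 and 18.02 in CTRL. The study's qPCR gave higher Gpr17 than CTRL with every vesicle type.

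Of 27 myelin genes, 1 fell and none rose over the 12 arrays, and 3 rose and 3 fell without MSC-EVs replicate 3. The median was 0.00. Mbp differed by 0.02 (95% interval -0.31 to 0.34, adjusted p = 0.988), and the 95% interval of Cnp was -0.26 to 0.28. By qPCR, the study reported more Mbp with IL4-EVs than with CTRL. The Mbp cluster lay below the minimum of 6 log2 units, so its value here cannot decide on the qPCR result. Myrf, the transcription factor that switches on myelin genes, had 8.26, 8.24 and 8.21 log2 units in IL4-EVs arrays, against 7.29, 7.58 and 7.57 in CTRL arrays (0.76, adjusted p = 0.465, and 0.00111 without MSC-EVs replicate 3, which lay at 6.08). Gsn, an actin-severing protein of mature oligodendrocytes, was the gene that fell, with 8.24, 8.24 and 8.22 with IL4-EVs and 8.63, 8.62 and 8.61 in CTRL (-0.39 ± 0.0651, adjusted p = 0.00573), and did so whichever array was left out.

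The lineage regulators that changed were chromatin remodelers. Of 18 transcription factors and remodelers that promote the lineage, Chd7, Smarca4 and Chd8 rose and none fell (5 rose without MSC-EVs replicate 3, and Chd8, at 0.32, was lost without several single arrays), while the 95% intervals were -0.10 to 0.17 for Olig2 and -0.21 to 0.54 for Sox10, which did not pass. Chd7, a chromodomain helicase needed for myelination, was at 10.46, 10.62 and 10.56 with IL4-EVs, against 9.71, 9.90 and 9.91 in CTRL (0.70 ± 0.123, adjusted p = 0.00677). Of 23 inhibitors of oligodendrocyte differentiation, 3 rose and none fell (6 and 2 without MSC-EVs replicate 3, and 1 rise without any one of IL4-EVs replicates 2 and 3 and CTRL replicate 1), namely the OPC genes Sox6 and Ptprz1 and the E protein gene Tcf4 (E2-2, 0.35, adjusted p = 0.0163, up to 0.084 with a single array left out). Tcf4 is not the Wnt factor of that common name, which is Tcf7l2 (0.46, adjusted p = 0.412, and 0.00754 without MSC-EVs replicate 3), and without it 2 of 22 rose.

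Enzymes that acetylate and methylate histones rose more often than they fell. Of 56 measured, 18 rose and 5 fell, which is 32.1% and 8.93%, against 5.47% and 21.1% of genes with a mean of at least 6. The rises numbered 8 on leaving out CTRL replicate 1 and 10 on leaving out IL4-EVs replicate 2. Crebbp, the acetyltransferase CBP, had 11.75, 11.86 and 11.81 log2 units in IL4-EVs arrays and 10.65, 10.93 and 11.01 in CTRL arrays (0.94 ± 0.0971, adjusted p = 0.0013). Its paralog Ep300 had 10.37, 10.49 and 10.52 with IL4-EVs, against 9.45, 9.82 and 9.77 in CTRL (0.78 ± 0.0962, adjusted p = 0.0018). Methyltransferases of histone H3 rose beside them, with Kmt2c at 0.64, Kmt2d at 0.59, Setd2 at 0.55 and Nsd1 at 0.53 log2 units. Kmt2e, a family member known as a chromatin reader, rose by 0.76. The DNA demethylases that rose were Tet1 (0.62), Tet3 (0.41) and Tet2 (0.35), which were lost without CTRL replicate 1.

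Other histone-modifying enzymes fell. Hdac1, a histone deacetylase, was at 13.20, 13.33 and 13.31 with IL4-EVs, against 13.79, 13.78 and 13.78 in CTRL (-0.50 ± 0.0858, adjusted p = 0.00606). Kat8 and Kat5, both MYST acetyltransferases, fell by 0.51 and 0.31, and Prmt1, an arginine methyltransferase, by 0.38. Among 34 chromodomain and SWI/SNF remodelers, 14 rose and 4 fell (7 rises without CTRL replicate 1 or IL4-EVs replicate 2, 8 without IL4-EVs replicate 3, and 2 falls without most single arrays). The ATPases Srcap (0.70), Atrx (0.52) and Ep400 (0.56) and the nucleosome remodeling subunit Bptf (0.61) rose, and the small subunits Actl6a (-0.74) and Ss18 (-0.56) fell.

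**Figure D3:**
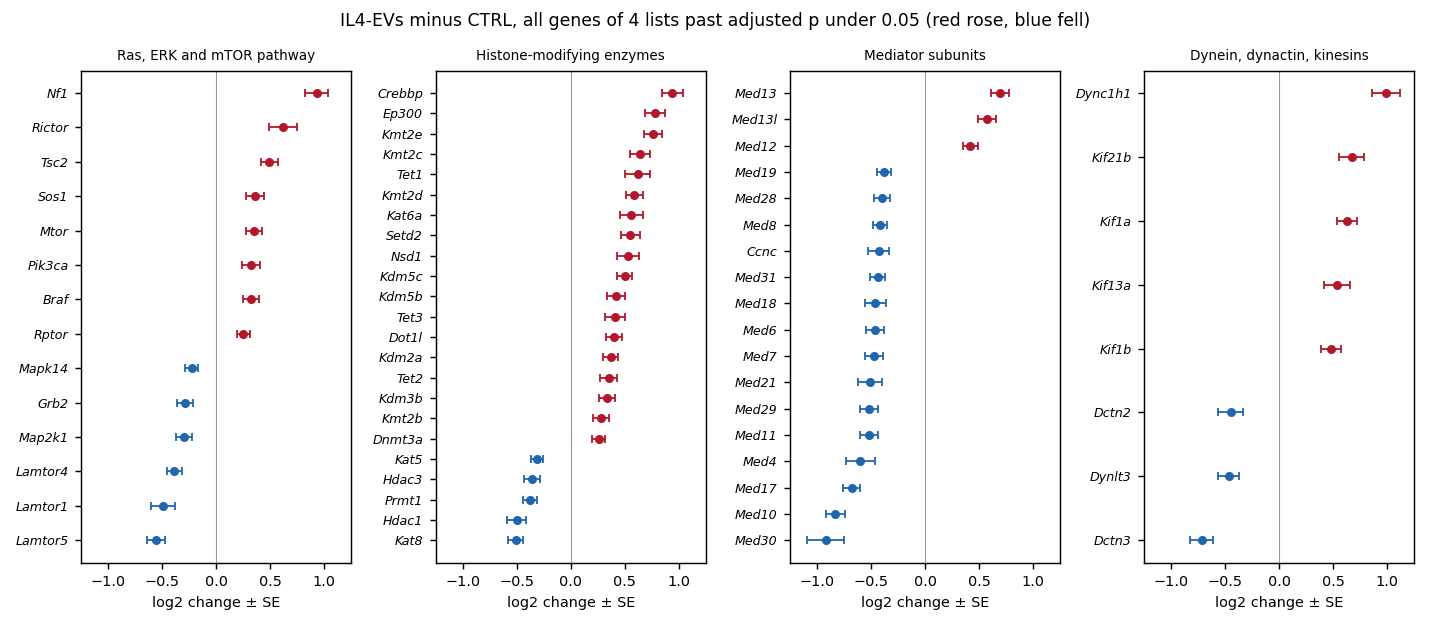
Change in IL4-EVs against CTRL (log2 units with the SE of the fit, horizontal axis) for every gene with an adjusted p under 0.05 in 4 lists: Ras, ERK and mTOR genes, histone-modifying enzymes, Mediator subunits, and dynein, dynactin and kinesin genes. Red genes rose and blue genes fell, so each list holds both directions.

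Subunits of Mediator, RNA polymerase and the spliceosome fell in larger number than they rose. Of 31 Mediator subunits, which link transcription factors to RNA polymerase II, 15 fell and 3 rose. Among those with a mean of at least 6, 51.9% fell and 11.1% rose, against 21.1% and 5.47% of all such genes. Med10 had 10.24, 10.20 and 10.23 log2 units with IL4-EVs, against 11.19, 10.84 and 11.11 in CTRL (-0.83 ± 0.0911, adjusted p = 0.0013). The subunits that rose were Med13, Med13l and Med12, of the kinase module. Med13 had 12.41, 12.49 and 12.47 with IL4-EVs, against 11.61, 11.81 and 11.88 in CTRL (0.69 ± 0.084, adjusted p = 0.00173). Of 41 RNA polymerase subunits and general factors, 18 fell (11 without CTRL replicate 1 or IL4-EVs replicate 2) and 2 rose (0 without either). The shares were 43.6% and 5.13% for members with a mean of at least 6. Polr2e, a small subunit shared by the nuclear polymerases, was at 6.97, 6.93 and 7.06 with IL4-EVs, against 7.88, 7.93 and 7.78 in CTRL (-0.88 ± 0.0861, adjusted p = 0.0013), whereas the catalytic subunit Polr2a was at 0.66 (adjusted p = 0.0452, above 0.05 without any one array of the 2 groups) and its partner Polr2b, at 0.01, did not pass.

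Of 38 spliceosome core proteins, 17 fell and 2 rose, with a median of -0.37 (8 falls without CTRL replicate 1 or IL4-EVs replicate 2, 9 without IL4-EVs replicate 1 and 11 without CTRL replicate 2). Among those with a mean of at least 6, 46.7% fell and 6.67% rose, against 21.1% and 5.47% of all such genes. Beside Snrpg, the Sm-like protein Lsm7 (-0.81) and the branch-site protein Sf3b6 (-0.71) fell. Prpf8, the scaffold at the catalytic center, had 13.54, 13.69 and 13.60 in IL4-EVs arrays, against 12.83, 13.02 and 13.05 in CTRL arrays, and rose (0.64 ± 0.0887, adjusted p = 0.00235), as did the helicase Snrnp200 (0.54). Of 32 translation initiation and elongation factors, 15 fell and 2 rose. The shares were 48.4% and 6.45% for members with a mean of at least 6. Eif3i, a subunit of the initiation factor eIF3, was at 10.34, 10.34 and 10.50 with IL4-EVs, against 11.24, 11.09 and 11.23 in CTRL (-0.79 ± 0.0993, adjusted p = 0.00188), and Eif5b, which joins the ribosomal subunits, rose by 0.40 whichever array was left out. Among 18 aminoacyl-tRNA synthetases 2 rose and 2 fell (1 each without CTRL replicate 1, IL4-EVs replicate 2 or IL4-EVs replicate 3). Among 40 RNA-binding and splicing regulators 3 rose and 4 fell, and 7 rose and 1 fell after a second quantile normalization. Of these, Srrm2, a large scaffold of nuclear speckles, rose by 0.68 (adjusted p = 0.00252), and Hnrnpc, which packages nascent transcripts, fell by 0.43.

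Many mitochondrial genes outside the respiratory chain fell. Of 30 genes of mitochondrial protein import, 15 fell and none rose, which is 50% against 21.1% of genes with a mean of at least 6, with a median of -0.43. Leaving out IL4-EVs replicate 2 gave 10. Tomm7, a small subunit of the outer membrane translocase that also stabilizes PINK1, had 8.10, 8.08 and 7.80 log2 units with IL4-EVs, against 8.86, 8.91 and 9.0 in CTRL (-0.93 ± 0.121, adjusted p = 0.00202). Of 29 genes of mitochondrial shape and biogenesis, 12 fell and none rose (5 to 7 without CTRL replicate 1, IL4-EVs replicate 1 or IL4-EVs replicate 2). They included Apoo, a subunit of the cristae-organizing MICOS complex (-0.81), and Fis1, a fission adaptor (-0.52). For Apoo too the cluster name gives another chromosome than RefSeq, so its assignment is uncertain.

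Of 24 genes of mitochondrial fatty acid oxidation, 12 fell and none rose (7 without CTRL replicate 1 or IL4-EVs replicate 2), with a median of -0.33. Echs1, which hydrates short-chain enoyl-CoA, was at 8.49, 8.47 and 8.64 with IL4-EVs, against 9.52, 9.35 and 9.46 in CTRL (-0.91 ± 0.0819, adjusted p = 0.00124). The acyl-CoA thioesterase Acot13 (-0.81), the carnitine carrier Slc25a20 (-0.72) and the dehydrogenase Hadh (-0.72) fell as well. In the citric acid cycle 10 of 20 genes fell (5 without CTRL replicate 1 or 2 or without IL4-EVs replicate 1 or 2, 6 without IL4-EVs replicate 3 and 4 after a second quantile normalization). Fumarase, Fh1, was at 9.18, 9.15 and 9.22 in IL4-EVs arrays, against 9.84, 9.81 and 9.86 in CTRL arrays (-0.66 ± 0.0755, adjusted p = 0.00147).

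In glycolysis 6 of 21 genes fell and none rose, with a median of -0.05 that turned to 0.01 with cyclic loess, and 2 or 3 passed without any one of IL4-EVs replicates 1, 2 and 3 and CTRL replicates 1 and 2. Ldhb, the lactate dehydrogenase subunit that favors pyruvate formation, had 10.56, 10.53 and 10.75 with IL4-EVs and 11.66, 11.53 and 11.48 in CTRL (-0.95 ± 0.0942, adjusted p = 0.0013), and Pgk1 fell by 0.58. Nit2, an omega-amidase, had 10.22, 10.12 and 10.21 in IL4-EVs arrays, against 11.15, 11.12 and 11.15 in CTRL arrays (-0.96 ± 0.14, adjusted p = 0.00292). Of 33 nucleotide metabolism genes 15 fell and none rose (5 without CTRL replicate 1, 9 without IL4-EVs replicate 1 or 2), among them the dCTP pyrophosphatase Dctpp1 (-0.84) and the purine nucleoside phosphorylase Pnp (-0.71).

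Of 33 glutathione and antioxidant genes, 13 fell and none rose (8 without CTRL replicate 1 or IL4-EVs replicate 2), and all 33 had a lower mean with IL4-EVs. Gstp1, a glutathione transferase, was at 12.35, 12.13 and 12.19 with IL4-EVs, against 13.12, 13.09 and 13.06 in CTRL (-0.87 ± 0.139, adjusted p = 0.00447). Prdx4, a peroxiredoxin (-0.72), Gpx4, the peroxidase that limits lipid peroxidation (-0.51), and Nqo1, a quinone reductase (-0.55), fell too, the last 2 at means below 6. Among 27 mitochondrial apoptosis regulators 1 rose and 6 fell (2 without IL4-EVs replicate 2, 3 after cyclic loess). Hax1, an anti-apoptotic mitochondrial protein, had 9.31, 9.26 and 9.28 in IL4-EVs arrays, against 10.14, 10.19 and 10.21 in CTRL arrays (-0.90 ± 0.0886, adjusted p = 0.0013), while Birc6, a giant inhibitor of caspases with ubiquitin ligase activity, had 9.65, 9.81 and 9.76 with IL4-EVs, against 8.78, 8.94 and 9.04 in CTRL (0.82 ± 0.0984, adjusted p = 0.00164).

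Oligodendrocytes need lipid genes for the myelin membrane. Among those with a mean of at least 6, 10.5% of the cholesterol synthesis genes and 11.4% of the other lipid synthesis genes fell, against 21.1% of all such genes, and none and 5.71% rose, against 5.47%. Of 20 cholesterol synthesis genes 2 fell and none rose (0 or 1 fell without any one array of the 2 groups, and 6 fell and 1 rose without MSC-EVs replicate 3), and of 37 fatty acid, sphingolipid and phospholipid genes 2 rose and 5 fell (2 or 3 falls without any one of IL4-EVs replicates 1 to 3 and CTRL replicates 1 and 3). Cyclic loess gave 8 rises in the second list. Fasn, fatty acid synthase, had 12.28, 12.52 and 12.34 log2 units with IL4-EVs, against 11.42, 11.69 and 11.76 in CTRL (0.75 ± 0.0975, adjusted p = 0.00202), whereas Hsd17b12, which elongates fatty acids, fell by 0.46 (adjusted p = 0.0028). The pair that exports cholesterol from lysosomes moved apart: the membrane protein Npc1 had 11.10, 11.20 and 11.10 in IL4-EVs arrays and 10.51, 10.71 and 10.61 in CTRL arrays (0.52 ± 0.0675, adjusted p = 0.00202), and its soluble partner Npc2 had 6.21, 6.15 and 6.36 with IL4-EVs, against 6.99, 6.79 and 6.91 in CTRL (-0.66 ± 0.0978, adjusted p = 0.00313). Among 23 phospholipid flippases and scramblases, Atp10b (0.58), Atp8a1 (0.48) and Atp11a (0.37) rose whichever array was left out, and Tmem30a, their common partner subunit, fell (-0.27, adjusted p = 0.0409, lost without any one array of the 2 groups).

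**Figure D4:**
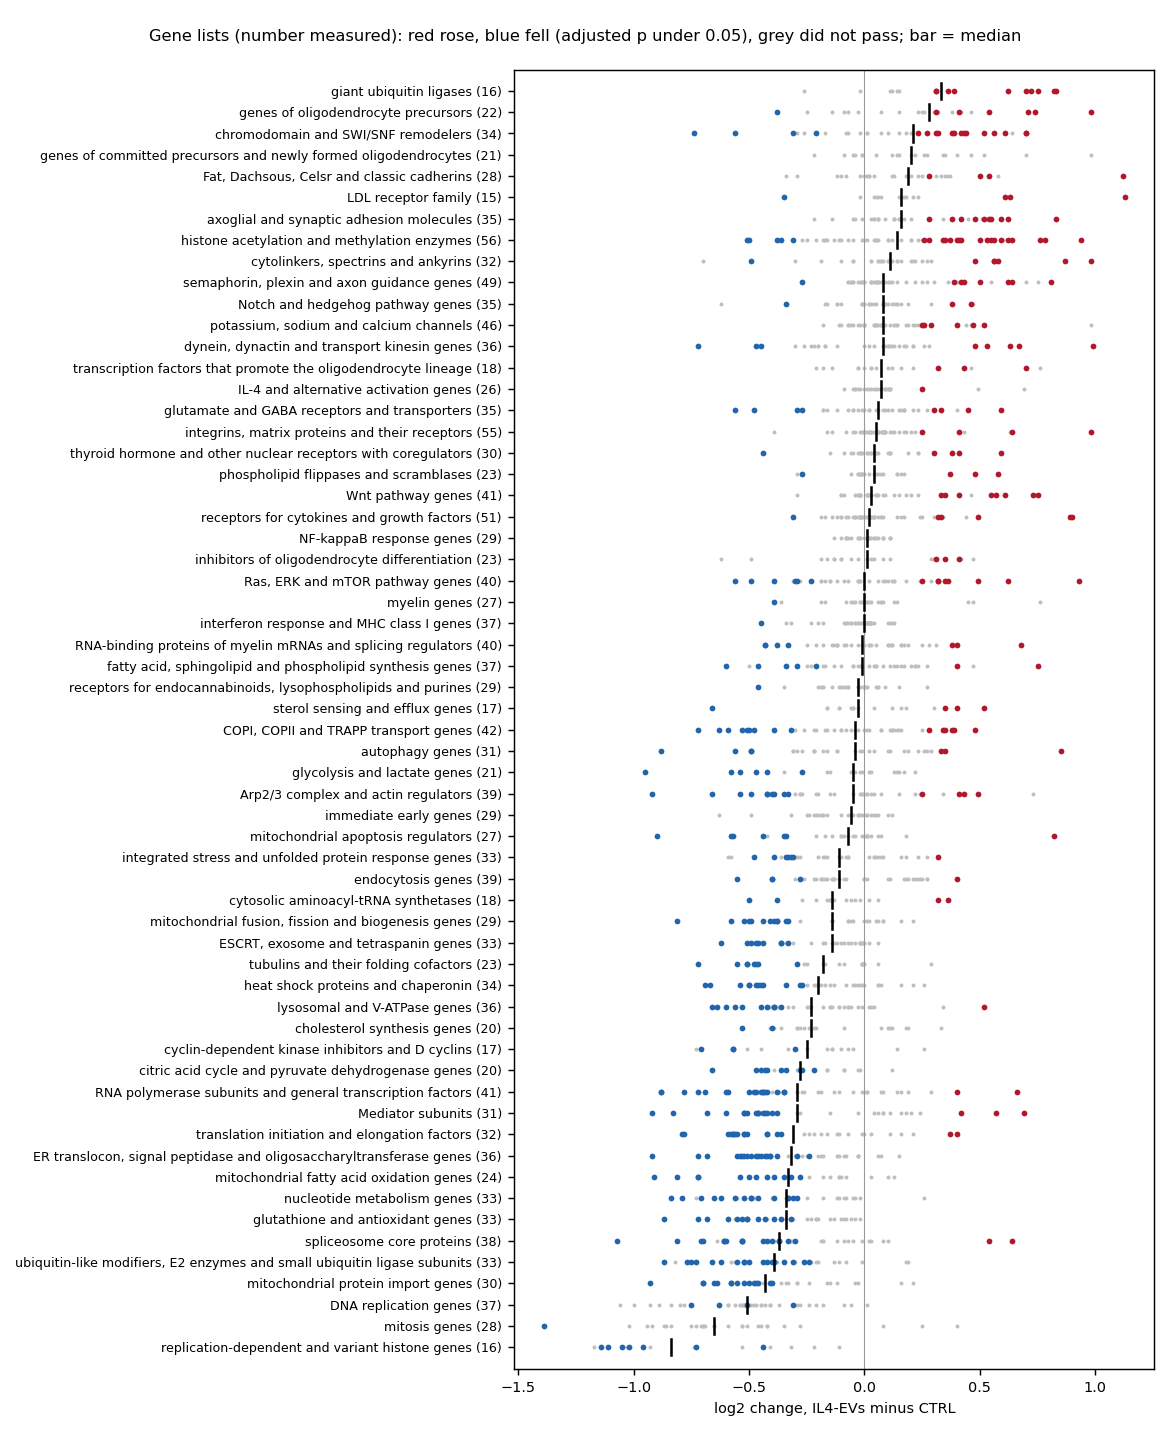
Change of each measured gene (log2 units, IL4-EVs minus CTRL) in the gene lists, with the number of measured genes in brackets and lists ordered by their median (black bar). Red points rose and blue points fell at an adjusted p under 0.05; histone genes have the lowest median (-0.84) and giant ubiquitin ligases the highest (0.33).

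Of 39 endocytosis genes, which serve the uptake of vesicles, 4 fell and 1 rose, which is 10.3% and 2.56%, against 7.47% and 1.89% of all genes and 21.1% and 5.47% of those with a mean of at least 6 (2 falls without any one of IL4-EVs replicates 1 to 3 and CTRL replicates 1 and 2, and 9 rises after cyclic loess). Of 15 genes of the LDL receptor family and its partners, which also take up vesicles and lipoproteins, Lrp1, Lrp6 and Lrp1b rose and Lrpap1 fell (6 rises after cyclic loess). Lrp1b was lost without CTRL replicate 1 or IL4-EVs replicate 2 or 3, and Lrpap1 without any one array of the 2 groups. Of 33 ESCRT, exosome and tetraspanin genes 9 fell and none rose (4 after a second quantile normalization). Among those with a mean of at least 6, 28.6% fell. The 9 included Cd63, a tetraspanin of late endosomes and of vesicles themselves, with 11.80, 11.51 and 11.70 log2 units in IL4-EVs arrays, against 12.21, 12.07 and 12.25 in CTRL arrays (-0.51 ± 0.0835, adjusted p = 0.00495). Of 36 lysosomal and V-ATPase genes 10 fell (5 without CTRL replicate 1, 16 without MSC-EVs replicate 3) and 1, Npc1, rose.

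Among 31 autophagy genes 3 rose and 4 fell (1 rise without CTRL replicate 1 or IL4-EVs replicate 3). Of those with a mean of at least 6, 12% rose and 16% fell, against 5.47% and 21.1% of all such genes. Gabarapl1, an Atg8-family protein of the autophagosome membrane, had 9.34, 9.37 and 9.36 with IL4-EVs, against 10.25, 10.21 and 10.24 in CTRL (-0.88 ± 0.137, adjusted p = 0.00403). Wdfy3, a giant adaptor that directs aggregates to autophagosomes, had 9.15, 9.37 and 9.27 in IL4-EVs arrays, against 8.25, 8.50 and 8.49 in CTRL arrays (0.85 ± 0.0925, adjusted p = 0.0013).

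Genes at the entry to the secretory pathway fell in a larger share. Of 36 genes of the ER translocon, signal peptidase and oligosaccharyltransferase, 19 fell and none rose, 52.8% of the list, with a median of -0.32 (12 without CTRL replicate 1). Among those with a mean of at least 6, 52.9% fell, against 21.1% of all such genes. Ostc, a subunit of the oligosaccharyltransferase, had 12.79, 12.48 and 12.68 with IL4-EVs, against 13.71, 13.58 and 13.41 in CTRL (-0.92 ± 0.125, adjusted p = 0.00226). In the COPI, COPII and TRAPP transport genes 9 of 42 fell and 6 rose (3 rises without CTRL replicate 1 or IL4-EVs replicate 2, and 11 after cyclic loess). Here 25.7% of members with a mean of at least 6 fell, near the base of 21.1%, and 17.1% rose, against 5.47%. Sec13 (-0.63) and Trappc3 (-0.59) fell, and the large scaffold Sec16a (0.48) rose.

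Ubiquitin genes divided between the modifiers and the giant ligases. Of 33 ubiquitin-like modifiers, E2 enzymes and small ligase subunits 19 fell and none rose (9 to 12 without any one of IL4-EVs replicates 1 to 3 and CTRL replicates 1 and 2), 57.6% of the list. Among those with a mean of at least 6, 56.2% fell, against 21.1% of all such genes. Nedd8, the modifier that activates cullin ligases, was at 11.87, 11.86 and 11.79 with IL4-EVs, against 12.59, 12.58 and 12.60 in CTRL (-0.75 ± 0.101, adjusted p = 0.0022). Of 16 giant ubiquitin ligases 10 rose and none fell, 62.5% against 1.89% of all genes and 5.47% of those with a mean of at least 6, with 7 without CTRL replicate 1 or IL4-EVs replicate 2. Ubr4, a ligase of the N-end rule pathway, had 8.32, 8.52 and 8.44 in IL4-EVs arrays, against 7.38, 7.59 and 7.82 in CTRL arrays (0.83 ± 0.114, adjusted p = 0.00237), and Hectd4 (0.75), Herc2 (0.72) and Mycbp2 (0.70) rose as well.

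Heat shock proteins and chaperonin genes fell in 12 of 34 cases with no rise, chiefly prefoldin and CCT subunits, which fold actin and tubulin. The CCT subunit Cct2 had 16.36, 16.27 and 16.45 log2 units with IL4-EVs, against 16.80, 16.79 and 16.86 in CTRL (-0.46 ± 0.0693, adjusted p = 0.0035). Of 33 integrated stress and unfolded protein response genes 6 fell and 1 rose (1 to 3 falls without IL4-EVs replicates 2 or 3 or CTRL replicates 1 or 3, 1 after cyclic loess or a second quantile normalization and 10 without MSC-EVs replicate 3), led by Psat1, a serine synthesis enzyme (-0.39, adjusted p = 0.00553). These shares, 24% fallen and 4% risen with a mean of at least 6, were near the base of 21.1% and 5.47%.

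In the Wnt pathway 8 of 41 genes rose and none fell, with 5 rises without CTRL replicate 1. Tnks, the tankyrase that marks axin for degradation, had 11.28, 11.41 and 11.30 log2 units with IL4-EVs, against 10.36, 10.70 and 10.66 in CTRL (0.75 ± 0.0892, adjusted p = 0.00155). Apc, the scaffold of the complex that degrades β-catenin, had 12.66, 12.84 and 12.76 in IL4-EVs arrays, against 11.87, 12.11 and 12.11 in CTRL arrays (0.73 ± 0.0897, adjusted p = 0.0018). The coreceptor Lrp6 (0.61), the kinase Gsk3b (0.57) and the receptor-removing ligase Znrf3 (0.33, at a mean below 6) rose too, and the other 3 were Dvl3, Apc2 and Tcf4. The list held the E protein genes Tcf3 and Tcf4, which are not Wnt effectors, and without them 7 of 39 rose. Of 35 Notch and hedgehog genes 2 rose and 1 fell (1 and 0 without CTRL replicate 1, IL4-EVs replicate 2 or IL4-EVs replicate 3), and of 30 thyroid hormone and other nuclear receptors with coregulators 4 rose and 1 fell. The coactivators Ncoa6 (0.59), Ncoa2 (0.41) and Ncoa1 (0.38) rose, and Nr1d2, a clock repressor, fell by 0.44.

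Ras, ERK and mTOR genes held both directions. Of 40, 8 rose and 6 fell (2 to 4 rises and 2 to 4 falls without single arrays of the 2 groups). Among those with a mean of at least 6, 21.6% rose, against 5.47% of all such genes. Falls, at 16.2%, were below the base of 21.1%. Nf1, the GTPase-activating protein neurofibromin that restrains Ras in OPCs, had 11.10, 11.27 and 11.23 with IL4-EVs, against 10.07, 10.32 and 10.43 in CTRL (0.93 ± 0.106, adjusted p = 0.00138), and Tsc2, which restrains mTOR complex 1, rose by 0.49. The Ragulator subunits Lamtor5 and Lamtor4, which hold mTOR complex 1 on the lysosome, fell by 0.56 and 0.39. These 4 genes passed whichever array was left out.

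Few genes that respond to cytokines passed, and most of them were dim. Of 29 NF-kappaB response genes, 6 of them with a mean of at least 6, 0 rose or fell over the 12 arrays or without any single array (limma, with 0 higher and 0 lower at an unadjusted p under 0.05). Of 37 interferon and MHC class I genes, 3 with a mean of at least 6, 1 fell, Psmb10 (-0.45, above 0.05 without any one array of the 2 groups), which codes for an immunoproteasome subunit. Of 26 genes of IL4 signaling and alternative activation, 4 with a mean of at least 6, 1 rose, Stat3 (0.25, above 0.05 without any one array of the 2 groups). The IL4 receptor chain Il4ra was dim, at 4.62, 4.75 and 4.63 log2 units with IL4-EVs and 4.58, 4.69 and 4.51 in CTRL (adjusted p = 0.759), as was its effector Stat6, at 3.54, 3.48 and 3.51 with IL4-EVs and 3.50, 3.47 and 3.49 in CTRL. Of 29 immediate early genes 0 passed over the 12 arrays (limma, with 0 higher and 3 lower at an unadjusted p under 0.05), and 3 fell without MSC-EVs replicate 3. Of 29 receptors and enzymes for endocannabinoids, lysophospholipids and purines 1 fell, the monoacylglycerol hydrolase Abhd6 (-0.46).

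Among adhesion and guidance genes rises outnumbered falls, but most members did not pass. Of 35 axoglial and synaptic adhesion molecules 10 rose (28.6%, against 1.89% of all genes) and none fell (6 without CTRL replicate 1 or IL4-EVs replicate 2). Among the 24 with a mean of at least 6, 37.5% rose, against 5.47% of all such genes. Dscam, a homophilic adhesion molecule of the immunoglobulin family, had 13.04, 13.22 and 13.17 log2 units in IL4-EVs arrays, against 12.16, 12.38 and 12.39 in CTRL arrays (0.83 ± 0.128, adjusted p = 0.00365). Astn1, astrotactin (0.62), Adgrl1 and Adgrl3, latrophilins (0.59 and 0.52), Ptprs, a receptor phosphatase (0.54), and Nlgn3, a neuroligin (0.48), rose as well. Of 49 semaphorin, plexin and guidance genes 7 rose (14.3%) and 1 fell (no fall without any one array of the 2 groups, 3 or 4 rises without any one of IL4-EVs replicates 2 and 3 and CTRL replicates 1 to 3, 14 without MSC-EVs replicate 3). Dcc, a netrin receptor that OPCs use in migration, had 10.90, 11.05 and 10.90 with IL4-EVs, against 9.96, 10.32 and 10.15 in CTRL (0.81 ± 0.124, adjusted p = 0.00365), and Sema6a, a transmembrane semaphorin of the oligodendrocyte lineage, rose by 0.64.

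The 19 neuronal markers had a median change of -0.02, with 9 higher and 10 lower. Dcx rose (0.50, lost without any one array of the 2 groups), Snap25 and Nefl fell (-0.56 and -0.40), and 13 lay below the minimum, among them Rbfox3, Syt1, Slc17a7 and Gad1. Their summed linear level was 14000 to 14600 in IL4-EVs arrays and 12300 to 12900 in CTRL arrays. The 17 astrocyte markers summed to 7940 to 8290 with IL4-EVs, against 9090 to 9720 in CTRL, with 2 fallen and Gfap and Aldh1l1 below the minimum. Their part in these results was not tested. Among classic and giant cadherins 4 of 28 rose and none fell (2 without any one array of the 2 groups, 11 without MSC-EVs replicate 3), with Fat1 in front. Among 55 integrins, matrix proteins and receptors 4 rose (1 or 2 without any one array of the 2 groups), led by the laminin chain Lamc1 (0.64, adjusted p = 0.00365).

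The cytoskeleton held both directions as well. Of 32 cytolinkers, spectrins and ankyrins 6 rose and 1 fell. Dst, the giant linker dystonin, had 9.0, 9.28 and 9.28 log2 units with IL4-EVs, against 8.03, 8.20 and 8.39 in CTRL (0.98 ± 0.104, adjusted p = 0.0013). Map1b, a microtubule-associated protein of growing processes, had 10.39, 10.62 and 10.50 in IL4-EVs arrays, against 9.41, 9.72 and 9.78 in CTRL arrays (0.87 ± 0.16, adjusted p = 0.0088). The spectrins Sptan1 (0.58) and Sptbn1 (0.56) and the ankyrin Ank3 (0.48) rose with them, and the small tubulin-binding protein Stmn3, at a mean below 6, fell by 0.49.

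Dync1h1, the motor subunit of cytoplasmic dynein, had 11.34, 11.55 and 11.50 with IL4-EVs, against 10.23, 10.45 and 10.73 in CTRL (0.99 ± 0.129, adjusted p = 0.00202), and the transport kinesin Kif1a rose by 0.63. Dctn3, a small dynactin subunit, had 11.80, 11.82 and 11.98 in IL4-EVs arrays, against 12.58, 12.64 and 12.53 in CTRL arrays (-0.72 ± 0.104, adjusted p = 0.0028). Over the 36 dynein, dynactin and kinesin genes 5 rose and 3 fell (3 rises without CTRL replicate 1 or IL4-EVs replicate 2, and 1 fall without IL4-EVs replicate 1 or 2 or CTRL replicate 1). Of members with a mean of at least 6, 16.7% rose and 10% fell, against 5.47% and 21.1% of all such genes. Tubulins and their folding cofactors fell in 8 of 23 cases (3 to 5 without any one of IL4-EVs replicates 2 and 3 and CTRL replicates 1 to 3).

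In the Arp2/3 and actin list 10 of 39 genes fell (5 without IL4-EVs replicate 2, 6 without CTRL replicate 1) and 4 rose (2 without any one array of the 2 groups). Among those with a mean of at least 6, 25.7% fell and 11.4% rose, against 21.1% and 5.47% of all such genes. The falls were near that base. Brk1, the small subunit of the WAVE complex that starts branched actin, had 12.14, 12.06 and 12.38 log2 units with IL4-EVs, against 13.11, 13.07 and 13.17 in CTRL (-0.92 ± 0.144, adjusted p = 0.004).

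Channel and receptor genes changed singly. Of 46 potassium, sodium and calcium channels 6 rose and none fell (1 or 2 without IL4-EVs replicates 2 or 3 or CTRL replicates 1 or 2, 11 without MSC-EVs replicate 3), of which the calcium channel Cacna1c (0.40) passed whichever array was left out. Of 35 glutamate and GABA receptors and transporters 4 rose and 4 fell (1 to 3 each without single arrays of the 2 groups). Grik3, a kainate receptor subunit, had 11.22, 11.42 and 11.24 in IL4-EVs arrays, against 10.58, 10.78 and 10.77 in CTRL arrays (0.59 ± 0.0941, adjusted p = 0.00452). Gabra3, a GABA-A receptor subunit, had 8.01, 7.98 and 8.05 with IL4-EVs, against 8.75, 8.57 and 8.41 in CTRL (-0.56 ± 0.0845, adjusted p = 0.00336).

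Across all these functions the change varied with the length of the gene. For 6677 protein-coding genes with a mean of at least 6 outside the set-aside groups, the genomic span (RefSeq, introns included) and the change had a Spearman rho of 0.473, given as a description because genes are not independent. Genes of up to 3 kb had a median change of -0.38, and 42.7% of them fell and 0% rose. Between 10 and 30 kb the median was -0.18, with 24.3% fallen and 1.98% risen. Between 100 and 300 kb it was 0.12, with 4.27% fallen and 20.1% risen, and above 300 kb it was 0.18, with 2.59% fallen and 24.9% risen. The gradient was present in each IL4-EVs array: the 1195 genes of up to 10 kb lay at medians of -0.29, -0.27 and -0.24 relative to the CTRL mean in IL4-EVs arrays and at 0.02, 0.00 and -0.02 in CTRL arrays, and the 1012 genes above 100 kb at 0.08, 0.16 and 0.14 in IL4-EVs arrays and at -0.04, 0.04 and 0.00 in CTRL arrays. Nf1 spans 242 kb, Erbb4 1080 kb and Crebbp 133 kb, whereas Polr2e spans 3.71 kb, Bloc1s1 3.61 kb and Snrpg, whose cluster is of uncertain assignment, 7.36 kb. There were exceptions within both classes, such as Gabra3, which spans 224 kb and fell, and Fasn, which spans 19.2 kb and rose. The part of gene length in the lists above was not tested.

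**Figure D5:**
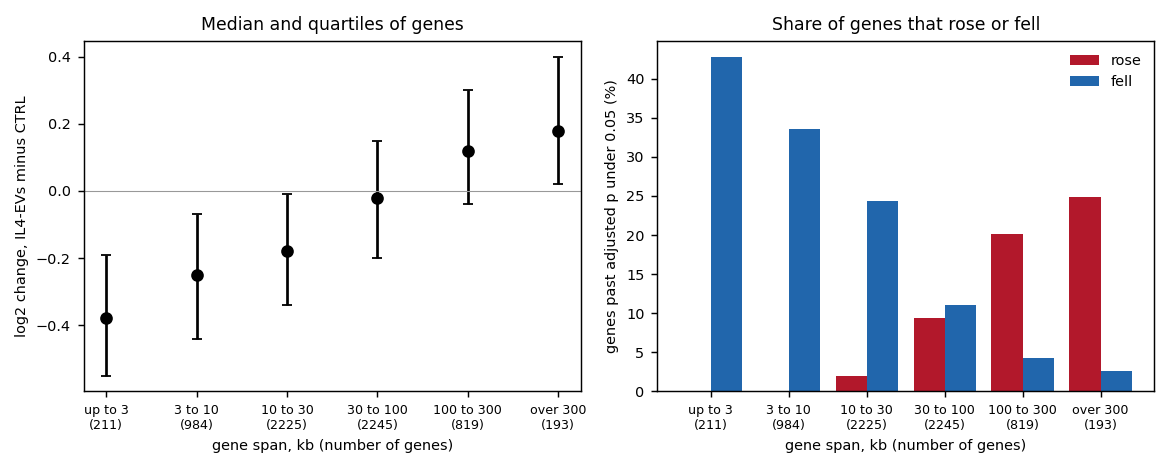
Change in IL4-EVs against CTRL by genomic span of the gene (kb, number of genes in brackets) for 6677 protein-coding genes. Left, median and quartiles of the log2 change, from -0.38 for genes up to 3 kb to 0.18 for genes over 300 kb; right, percent of genes that rose (red) or fell (blue) at an adjusted p under 0.05.

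Finally, IL4-EVs were compared directly with the other vesicle groups. Against i-EVs no cluster of 65535 passed the fold and adjusted p (limma, 0 clusters; lowest adjusted p 0.432), although 4954 (7.56%) had an unadjusted p under 0.05. Against MSC-EVs 1 cluster passed (0.00153%) and 5838 (8.91%) had an unadjusted p under 0.05, with 186 passing when MSC-EVs replicate 2 was left out. For the genes described above the SE was the same as against CTRL, and the adjusted p was taken over 65535 clusters. Lrp1 differed by 0.40 between IL4-EVs and i-EVs (95% interval 0.13 to 0.66, adjusted p = 0.483) and by -0.38 between IL4-EVs and MSC-EVs (-0.65 to -0.12, adjusted p = 0.42). Snrpg differed by -0.47 between IL4-EVs and i-EVs (-0.67 to -0.27, adjusted p = 0.432) and by -0.14 between IL4-EVs and MSC-EVs (-0.34 to 0.06). Crebbp differed by 0.37 between IL4-EVs and i-EVs (0.16 to 0.58, adjusted p = 0.435) and by -0.24 between IL4-EVs and MSC-EVs (-0.46 to -0.03). Relative to the same 3 CTRL arrays, Lrp1 stood at 1.13 with IL4-EVs, 0.73 with i-EVs and 1.52 with MSC-EVs, and Snrpg at -1.07, -0.59 and -0.92 in the same order. These 3 comparisons share their CTRL arrays and are not independent. A missed threshold does not show that the vesicles acted alike.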

How the data were processed

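RNA of 12 OPC samples, 3 each with IL4-EVs, i-EVs, MSC-EVs and CTRL, was measured on Clariom D mouse arrays, 1 array per sample. The intensity values were deposited by the authors on a linear scale (3.34 to 999968) after RMA, which corrects perfect-match probes for background, quantile-normalizes the arrays and summarizes probes into transcript clusters. The methods name TAC and the submitters' notes Affymetrix Expression Console. RMA draws arrays to a common distribution, so a shift of most genes in a direction would be reduced. The table holds 65535 clusters, ends within chromosome 19 and holds the values of a second deposited file of processed values (largest difference 4.44e-16 log2 units). The sources used here do not give its annotation build. There were 0 unused sample columns. The number of arrays limits the precision.

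Values were turned to log2 and fitted with limma 3.58.1 (R 4.3.3, package data.table, version 1.17.8), with 1 mean per group over 12 arrays, 8 residual and 3.46 prior degrees of freedom. P-values were adjusted by Benjamini-Hochberg over 65535 clusters. Calls needed a fold of 1.5 and adjusted p under 0.05. For each gene the cluster with the highest mean was kept, and clusters with several symbols were not named. ± gives the SE of the fit. Genome spans, gene classes and sequences came from RefSeq (GRCm38.p6), matched by gene ID for 22373 clusters. The fit was tested on simulated data. Figures used matplotlib 3.10.9 (Python 3.11.15).

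The members and 60 gene lists were chosen with earlier results of these data known. Named genes were, by rule, the 15 largest rises and 15 largest falls (called, mean of at least 6, groups apart). Predicted genes, pseudogenes, small RNA genes and the genes set aside as respiratory chain, ribosome and proteasome were left out of these. Up to 3 called genes per list with the smallest p were added (2 with the highest mean where none was called). The genes that the study inferred as regulators or measured by qPCR were added too. Other genes were named after their values were seen. Replicate numbers were checked for pairing. The alternatives were 2 other normalizations, 6 arrays only, other variance estimates, a minimum mean, no fold limit and leaving out each array.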

Additional observations from a re-analysis of the deposited data

Results flagged for a closer look

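One transcript cluster without a gene symbol differed between IL4-EVs and MSC-EVs in the direct test of the difference, and was marked for a closer look because it was the single cluster of 65535 that did so. Its mean was 4.84 in IL4-EVs arrays and 5.63 in MSC-EVs arrays (log2 scale), a difference of -0.79 ± 0.0815 (limma, adjusted p = 0.0481, n = 3 arrays each). The level lies below the minimum of 6 used for clearly measured genes, and the cluster was not called after a second quantile normalization.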

How the results depend on the processing

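The count of 1178 clusters called between IL4-EVs and CTRL, 352 higher and 826 lower, was within 1.5 times of that under most alternatives. Higher clusters left that range more often than lower clusters. The split turned to more higher than lower clusters only with the 2 other normalizations. A second quantile normalization gave 993 calls (565 higher, 428 lower) and cyclic loess 985 (587 higher, 398 lower), while the median of all clusters shifted by -0.004 and -0.001. The cause was not tested. The 6 arrays alone gave 1625 (541 higher, 1084 lower), no moderation 761 (163 higher, 598 lower) and no fold limit 3762 (1054 higher, 2708 lower). Trended and robust variance gave 1148, a minimum mean of 6 gave 1448 and the values of the second deposited file 1178. With single arrays left out the counts ran from 645 (without CTRL replicate 1) to 1519 (without MSC-EVs replicate 3), from 139 to 498 for higher and from 506 to 1021 for lower clusters. Without IL4-EVs replicate 2 the count was 722, 184 higher and 538 lower, and higher clusters numbered 225 and 191 without IL4-EVs replicates 1 and 3.

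Same-numbered arrays of IL4-EVs and CTRL correlated in their deviations from the group means at 0.20, 0.18 and -0.31 over 13110 clusters, so the numbers were not taken to pair samples. With the replicate number as a block 1248 clusters were called, 342 higher and 906 lower.

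Directly against i-EVs 0 clusters were called under every alternative run. Against MSC-EVs the 1 cluster became 0 after a second quantile normalization, with the replicate block, with trended and robust variance and with no moderation, and stayed 1 after cyclic loess; single arrays left out gave 0 to 186, the latter without MSC-EVs replicate 2. Of the 162 genes named by rule none changed direction in any alternative, and most calls lost were lost without CTRL replicate 1 (26 genes) or IL4-EVs replicate 2 (23 genes). The medians of the glycolysis, autophagy, actin, lipid synthesis, RNA-binding and COPI, COPII and TRAPP lists, at -0.05 to -0.01, turned positive with cyclic loess. Falls were then fewer in the citric acid cycle (6 of 20), ubiquitin-like (10 of 33) and spliceosome (11 of 38) lists, and rises more frequent among cadherins (10 of 28).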

Other observations

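Outside the lists, Xist, the RNA that coats the inactive X chromosome, was at 13.05, 13.14 and 13.13 log2 units with IL4-EVs and at 12.05, 12.30 and 12.08 in CTRL, a rise of 0.97 ± 0.109 (limma, adjusted p = 0.00134). It stood 0.69 above CTRL with i-EVs and 1.28 above it with MSC-EVs. The Y-linked genes Kdm5d, Eif2s3y and Uty did not pass (-0.07, -0.22 and -0.11, adjusted p = 0.686, 0.147 and 0.599).

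Small nucleolar RNA genes rose where they passed. Of 63, 4 were called higher and 0 lower, where 0.382% of all genes were called higher and 2.21% lower. Snord111 was at 9.09, 8.68 and 8.46 with IL4-EVs, against 7.28, 7.34 and 7.55 in CTRL, and Snord16a at 11.80, 12.12 and 11.55 with IL4-EVs, against 10.38, 10.85 and 11.07 in CTRL. Of 21 clusters with a mean of at least 6 named for the repetitive Mir297, Mir466, Mir467 and Mir669 genes, 4 rose and 0 fell, with a median of 0.68 log2 units and 17 higher in all IL4-EVs arrays than in any CTRL array. Of all genes with such a mean, 5.47% rose and 18.1% were higher without overlap. The cluster name gives the same chromosome as RefSeq for 14 of the 21, and the copies are near-identical, so their names are uncertain. Mir466j (0.81, adjusted p = 0.0449) and Mir466k (0.63, adjusted p = 0.0363) passed and lie on the matching chromosome. Their mature sequences (RefSeq, GRCm38.p6, seed at bases 2 to 8 in capitals) show the repeat, and whether mature or precursor RNA gave the signal was not tested.
Mir466j, chr10:60960802-60960824, plus strand: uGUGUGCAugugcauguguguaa
Mir466k, chr3:85467396-85467418, plus strand: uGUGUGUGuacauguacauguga

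Predicted genes held 279 calls among 7670, 15 higher and 264 lower, and RefSeq pseudogenes 46 among 514, 0 higher and 46 lower (69 fell and 0 rose without the fold limit). Among all genes 0.382% were called higher and 2.21% lower. Of 2168 long noncoding RNA genes 3 were called, 1 higher and 2 lower. Clusters without a symbol went the other way, with 228 of 337 calls higher.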
